A study of Caenorhabditis elegans with 2 samples.

Results

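Regions precipitated with tagged CEH-19 were examined at the genes for small nuclear RNAs (snRNAs) and spliced leader RNAs of the nematode Caenorhabditis elegans. The genes were all 129 nuclear genes that the Ensembl annotation of WBcel235 classes as snRNA, of 46890 nuclear genes in all. Of them 30 are spliced leader genes by name, 12 sls-1 and 18 sls-2 genes, and 10 are smy genes. A region was counted at a gene when its summit, the point of highest enrichment that the authors' peak caller gave, lay within 500 bp of the gene. On this count 9 of the 129 genes, or 6.98%, had a region in the authors' list of reproducible peaks, against 3.62% of all nuclear genes. Of the 9, 5 were sls-2 genes, 3 were members of 1 snRNA sequence family, and the last was a member of another. Of the 5 sls-2 genes, sls-2.3 is counted through the region at its neighbour sls-2.2, and the summit at sls-2.9 lies nearer to a tRNA gene. None of the 12 sls-1 genes had a region in any list.

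The series holds 1 group of 2 biological replicates, numbered 2 and 3, of late embryos of mixed sex labelled 5 hours, which were collected by egg bleaching. Both come from strain OP739, whose worms carry the mutation unc-119(tm4063) and an insertion, wgIs739, that holds ceh-19::TY1::EGFP::3xFLAG and a working unc-119 gene. CEH-19 belongs to the homeodomain transcription factors and is known from few neurons. Its chromatin was pulled down through the GFP of the tag with an antibody, and the DNA was sequenced (ChIP-seq). Whole embryos were used, so strong binding in few cells and weak binding in many cannot be told apart, and no sample lacking the tag was used here, so the dependence of a region on CEH-19 was not tested. With 1 group there was no comparison between conditions, and the results are counts, positions, signal values and ranks.

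snRNAs are short non-coding RNAs that form, with proteins, the machinery that removes introns from messenger RNA precursors. In nematodes a spliced leader RNA donates its first bases to the start of many messenger RNAs by trans-splicing. The leader SL1 comes from the sls-1 genes, which lie in the tandem repeat that also holds the 5S ribosomal RNA genes, and SL2, used mostly for downstream genes of operons, comes from the sls-2 genes. SmY RNAs, from the smy genes, are nematode RNAs linked to trans-splicing. Promoters of snRNA genes generally carry a proximal sequence element, bound by the SNAP complex, a short way upstream of the transcribed part. In animals a TATA box beside that element is typical of the snRNA genes that RNA polymerase III transcribes.

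Most of these genes exist in several copies. Linked by sequence identity of at least 70.0% between transcribed parts, with the sls-1 and the smy genes kept together by name, and named here by 1 of their genes, they formed a family of 24 around R07E5.16, one of 19 around the sls-2 genes, one of 19 around C47F8.9, one of 13 around sup-39, one of 12 around F38E11.11, the 12 sls-1 genes, which hold 2 distinct sequences, the 10 smy genes, a family of 6 around B0213.21, one of 5 around T11F9.15 and 9 other genes. The annotation used here gives no snRNA type for the genes with clone names, so none is given to them. The 129 genes held 94 distinct sequences. The largest set of identical copies had 14 genes of 102 bases on chromosomes III, IV and V, among them W05B2.8, the gene with the strongest region. As 13 other genes share its transcribed part, flanking sequence alone tells these copies apart.

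The sequence just upstream is shown because it differed between copies with the same transcribed part. The next 5 sequences run from 85 bases before the 5′ end to base 5 of the gene, on the gene's strand, in the R07E5.16 family (RefSeq, WBcel235). The first 3 belong to its genes with a reproducible summit. R07E5.16 had the strongest region below the reproducible list, and K09B11.11 had no pooled region. Capitals mark GAACCC and TATATAA.
W05B2.8, chrIII:10989594-10989683, plus strand: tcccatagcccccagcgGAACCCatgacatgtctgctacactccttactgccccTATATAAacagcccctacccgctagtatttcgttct
C28A5.7, chrIII:4426951-4427040, minus strand: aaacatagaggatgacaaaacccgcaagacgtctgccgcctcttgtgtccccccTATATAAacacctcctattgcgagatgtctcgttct
F54D8.7, chrIII:5080894-5080983, minus strand: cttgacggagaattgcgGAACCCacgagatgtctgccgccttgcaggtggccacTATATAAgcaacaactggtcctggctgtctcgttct
R07E5.16, chrIII:4414100-4414189, plus strand: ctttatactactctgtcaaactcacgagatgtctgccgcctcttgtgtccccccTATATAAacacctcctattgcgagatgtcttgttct
K09B11.11, chrIV:13435882-13435971, minus strand: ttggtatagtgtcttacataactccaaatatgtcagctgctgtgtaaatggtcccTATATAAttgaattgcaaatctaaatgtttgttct

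Over the 85 upstream bases, compared position by position, C28A5.7 and R07E5.16 were 77.6% identical and W05B2.8 was 51.8% identical to C28A5.7. These 4 genes with regions were 17.6% to 23.5% identical to K09B11.11, although W05B2.8, C28A5.7, R07E5.16 and K09B11.11 have the same transcribed sequence. F54C8.9, another of the 14 copies, had a weak pooled region of signal 35.1, and its upstream bases were 25.9% to 29.4% identical to those 4 and 51.8% identical to K09B11.11. Counted position by position, related sequences that are out of step score low. In K09B11.11 TATATAA starts at another distance from the 5′ end than in those 4. The low values thus do not show that the upstream sequences are unrelated. The other genes of this family were not compared.

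Among the spliced leader genes the same windows are shown for 3 sls-2 genes with a reproducible summit, for sls-2.8, whose pooled region was the strongest of the sls-2 genes below the reproducible list, and for sls-2.12, which had no pooled region. Of the 3, sls-2.3 is counted only through the region at sls-2.2, which lies beyond its 3′ end. sls-2.4 and sls-2.9, which also had a reproducible summit, are not shown. Capitals mark CTCGAAA, GTCNGNAC and GAACCC, N standing for any base.
sls-2.1, chrII:5844780-5844869, plus strand: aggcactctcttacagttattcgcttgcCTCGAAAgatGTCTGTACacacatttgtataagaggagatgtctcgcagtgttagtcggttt
sls-2.2, chrII:5543513-5543602, plus strand: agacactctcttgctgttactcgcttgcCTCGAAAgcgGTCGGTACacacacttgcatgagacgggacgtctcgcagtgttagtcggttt
sls-2.3, chrII:5544269-5544358, minus strand: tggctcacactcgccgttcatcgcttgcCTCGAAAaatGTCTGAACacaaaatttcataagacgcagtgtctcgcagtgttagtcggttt
sls-2.8, chrIII:12250380-12250469, plus strand: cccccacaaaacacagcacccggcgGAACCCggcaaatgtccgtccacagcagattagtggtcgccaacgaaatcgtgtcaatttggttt
sls-2.12, chrIV:5261828-5261917, plus strand: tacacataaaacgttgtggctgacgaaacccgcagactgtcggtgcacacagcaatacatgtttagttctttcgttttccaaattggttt

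The upstream bases of sls-2.1, sls-2.2, sls-2.3 and sls-2.4 were 63.5% to 84.7% identical to one another and 31.8% to 41.2% identical to those of sls-2.8 and sls-2.12. The first 4 genes all had a reproducible summit within 500 bp, sls-2.3 only through the region at sls-2.2. sls-2.9, which also had one, and the other genes of the family were not compared. The genes compared were chosen with their regions known, so a link between upstream identity and summits was not tested.

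Counts over the lists were as follows. The reproducible list held 1112 peaks, 1091 of them on nuclear chromosomes, and was the strongest part of a pooled list of 30000 regions, which includes background regions. The replicate lists held 29534 regions in replicate 3 and 30000 in replicate 2. A reproducible summit lay within 500 bp of 9 of 129 snRNA and spliced leader genes, or 6.98% (exact 95% interval 3.24% to 12.8%), against 3.62% of all nuclear genes. The interval, which covers counting error only, includes the share over all genes. A pooled region lay at 44 of the 129, or 34.1%, against 38.9% of all nuclear genes. A region in both replicate lists lay at 23, or 17.8%, against 27.2% of all nuclear genes, and 64 genes had no region in any list. Among the 1112 strongest regions of each replicate, 8 genes, or 6.20%, had a summit in both lists, against 2.45% of all nuclear genes. Of the 99 genes that are not spliced leader genes 4 had a reproducible summit, or 4.04%. The distance from the background thus rests on the 5 sls-2 genes, of which sls-2.3 is counted through a neighbour's region. The summit counted for sls-2.9 lay 35 bp from a tRNA gene, nearer than to sls-2.9. The shares in the long lists lay below those of all genes, and none of these counts was tested. The counting window takes in the whole gene, so it is wider at longer genes, and the shares were not adjusted for gene length.

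The shares were higher at tRNA and snoRNA genes, a difference that was not tested. A reproducible summit lay at 9 of 129 snRNA and spliced leader genes, against 191 of 612 tRNA genes, or 31.2%, and 60 of 346 snoRNA genes, or 17.3%. For protein-coding genes it was 860 of 19973, or 4.31%. For the pooled list the shares were 34.1% of the snRNA and spliced leader genes, against 72.7% of tRNA genes, 55.2% of snoRNA genes and 57.6% of protein-coding genes. The share at snRNA and spliced leader genes was thus the lowest of these classes in the pooled list, on this count. The count takes in the whole gene, so its window is wider at long protein-coding genes. From 500 bp before the 5′ end to 100 bp after it, 24.2% of protein-coding genes had a pooled region. The share of that class thus depends on the window. This shorter window was not counted for the other classes, so the 24.2% is not the like share for theirs.

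**Figure D1:**
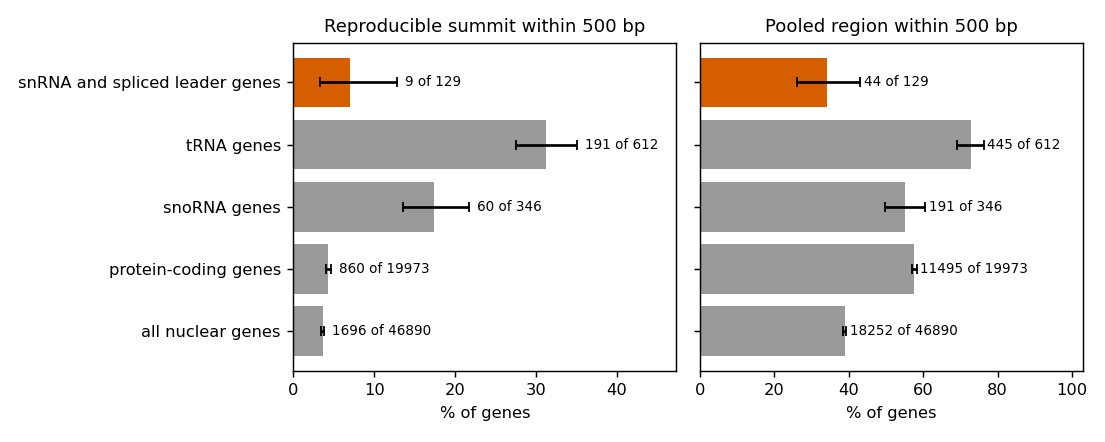
Percentage of genes of each class with a reproducible summit (left) or a pooled region (right) within 500 bp; whiskers are exact 95% binomial intervals, which cover counting error only, and the numbers are genes with a region of genes in the class. In the left panel the snRNA and spliced leader genes, at 6.98%, lie below the tRNA genes at 31.2% and the snoRNA genes at 17.3%.

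How unique the sequence around a gene is differed between these classes. It was measured as the percentage of 32-base words in the gene with 500 bp on either side that occur once in the nuclear genome. The median was 89.3% at snRNA and spliced leader genes, against 94.3% at tRNA genes, 100% at snoRNA genes and 99.5% at protein-coding genes. How reads that fit several places were treated is not given in the sources used here, and the part of repeated sequence in the counts was not tested. Of the 61 snRNA and spliced leader genes with at least 90% unique words, 7 had a reproducible summit, or 11.5%, against 34.9% of tRNA genes, 18.3% of snoRNA genes and 4.55% of protein-coding genes held to the same limit. Of the other 68, 2 had one, or 2.94%. A pooled region lay at 25 of the 61, or 41.0%, and at 27.9% of the other 68. Held to the same limit, the pooled shares were 77.8% of tRNA genes, 58.5% of snoRNA genes and 59.7% of protein-coding genes. The 38.9% of all nuclear genes was not held to this limit, so it is not the like share for the 41.0%. Of the 64 genes in no list 17 had under 50% unique words, against 1 of the 44 with a pooled region. The 17 include the 12 sls-1 genes, which lie in 1 tandem repeat.

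By family, reproducible summits lay at 3 of 24 genes of the R07E5.16 family, 5 of 19 of the sls-2 family and 1 of 12 of the F38E11.11 family. Pooled regions lay at 7 of the 24, 10 of the 19 and 8 of the 12. The sup-39 family had a pooled region at 9 of 13 genes and no reproducible one. The C47F8.9 family had pooled regions at 3 of 19 genes, the smy genes at 3 of 10, the families of T11F9.15 and B0213.21 at 1 gene each, and the 9 other genes at 2. No sls-1 gene had a region, and their windows held 0% to 27.9% unique words.

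**Figure D2:**
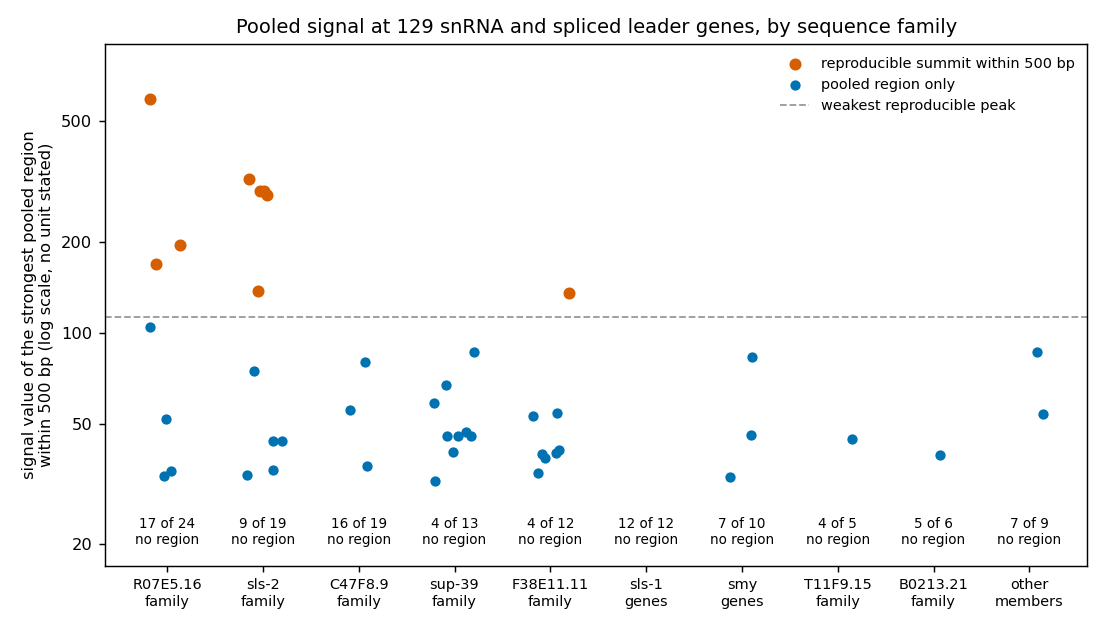
Signal value of the strongest pooled region within 500 bp of each gene (log scale), by sequence family; orange points are genes with a reproducible summit, blue points are genes with a pooled region alone, and the text gives the genes with no pooled region. Orange points appear in 3 families, and the dashed line marks the weakest nuclear reproducible peak, at 113.

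**Figure D3:**
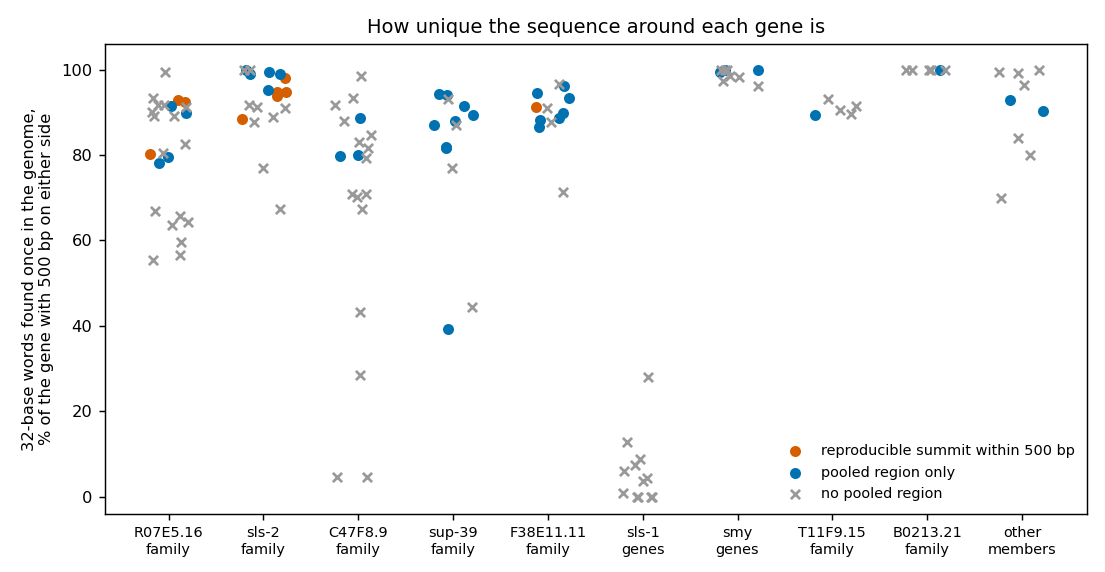
Percentage of unique 32-base words around each gene, by family; orange, reproducible summit; blue, pooled region alone; grey crosses, no pooled region. The sls-1 genes lie between 0% and 27.9%, and the 9 genes with a reproducible summit between 80.2% and 98.0%.

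The strongest region of all lay at W05B2.8, an snRNA gene in an intron of dhc-4 on the same strand. Its signal value was 593 in the pooled list, rank 23 of the reproducible list, with 331 in replicate 3 (rank 25 of that list) and 254 in replicate 2 (rank 21). The summit lay 11 bases into the gene. A second reproducible region had its summit 111 bp downstream of the gene, with a pooled signal of 359 (rank 69), 188 in replicate 3 and 171 in replicate 2. Both regions thus ranked among the 100 strongest in each replicate list. Of the 14 identical copies to which W05B2.8 belongs, 2 had a reproducible summit and 4 a pooled region. In the gene with 500 bp on either side, 80.2% to 92.9% of the words at the 3 reproducible genes of this family were unique. Within their transcribed parts 0% of the words were unique, and the strongest summit at W05B2.8 lies in that part.

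C28A5.7, the other of those 2 copies, lies in an intron of C28A5.6 on the same strand. It had a summit 64 bp downstream of the gene, with a pooled signal of 169 (rank 411), 99.3 in replicate 3 and 77.8 in replicate 2. A second summit lay 42 bp upstream of its 5′ end, with a pooled signal of 133 (rank 744), 67.9 in replicate 3 and 49.4 in replicate 2. F54D8.7 lies in no protein-coding gene and belongs to a set of 3 identical copies. Its summit lay 27 bp upstream, with a pooled signal of 196 (rank 299), 120 in replicate 3 and 80.2 in replicate 2. In these 3 genes, then, summits fell on either side of the 5′ end, and both replicates listed each region.

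The remaining 21 genes of this family had weaker regions or none. R07E5.16, in mpc-1, came closest to the reproducible list, with a pooled signal of 104 (rank 1371), 63.4 in replicate 3 and 34.3 in replicate 2, its summit 3 bp beyond the 3′ end. Of the 24 genes, 15 had TATATAA in the 100 bases upstream, and these included all 3 with a reproducible summit and 5 of the 7 with a pooled region. The other 9 had no reproducible summit and 2 pooled regions. The word was thus also present at 12 genes of the family without a reproducible summit, and it was chosen after sequences of these genes were seen. The medians of unique words around the genes with and without the word were 82.6% and 89.1%.

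Among the spliced leader genes the regions lay at sls-2 genes alone. At sls-2.4 the pooled signal was 323 (rank 93), with 201 in replicate 3 and 127 in replicate 2, and the summit lay 81 bases into the gene of 110 bases. At sls-2.2 it was 294 (rank 115), with 216 in replicate 3 and 77.2 in replicate 2, and the summit lay 105 bases in. The value in replicate 3 was the higher one at both, and by more at sls-2.2. The same region counts for sls-2.3, a converging gene 456 bases away, at 461 bp from its 3′ end. No other region of the reproducible list lay near sls-2.3, so it is counted through its neighbour's region. It is the gene just inside the 500 bp limit, and sls-2.15, at 764 bp from a summit of signal 126, is the one just outside.

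sls-2.1 had a summit 38 bp upstream of its 5′ end, with a pooled signal of 285 (rank 120), 162 in replicate 3 and 115 in replicate 2. A second summit lay 58 bp beyond its 3′ end, with 144 (rank 644), 88.0 in replicate 3 and 54.3 in replicate 2. sls-2.9 had a summit 239 bp upstream, with a pooled signal of 137 (rank 705), 67.7 in replicate 3 and 55.8 in replicate 2. That summit lay 35 bp from the tRNA gene M01E5.t1, nearer than to sls-2.9, and which of the genes it belongs to cannot be told apart. It was the 1 region of 11 with a tRNA or snoRNA gene within 500 bp of its summit.

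CTCGAAA lay in the 100 bases upstream of sls-2.1, sls-2.2, sls-2.3 and sls-2.4 and of no other snRNA or spliced leader gene. Of the 15 genes of the sls-2 family without it, 1 had a reproducible summit, sls-2.9, and 6 had a pooled region, at signals of 33.9 to 137. The medians of unique words around the genes with and without it were 94.3% and 94.8%. Over the other nuclear genes 2.04% had CTCGAAA in the same window, so the word is common in the genome. GTCNGNAC lay upstream of 9 genes of the family, among them all 5 with a reproducible summit. It also lay upstream of 18 of the 19 genes of the C47F8.9 family, none of which had a reproducible summit. Both words were chosen after sequences of these genes were seen, so these splits are descriptions and not tests. Of the genes with CTCGAAA, sls-2.3 is counted through the region at sls-2.2.

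sls-2.8 was the strongest sls-2 gene below the reproducible list, with a pooled signal of 74.6 (rank 3164) and 34.2 in replicate 2. Its summit lay 28 bp upstream, and no summit of replicate 3 lay within 100 bp of it. Replicate 3 had 1 region within 500 bp of the gene, of signal 43.9 (rank 4142), with its summit 11 bp beyond the 3′ end. sls-2.14 and sls-2.15 shared 1 region of 43.9, and sls-2.6 and sls-2.7 had 35.3 and 33.9, each listed by replicate 3 and not by replicate 2. The other 8 sls-2 genes had no pooled region. ZK1251.14, which groups with the sls-2 genes by sequence, had none either.

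F38E11.10 was the 1 reproducible gene of the F38E11.11 family. Its pooled signal was 136 (rank 723), with 80.8 in replicate 3, and the summit lay 174 bp upstream of its 5′ end. Replicate 2 had a summit of signal 68.6 that lay 101 bp from the pooled one, beyond the 100 bp within which summits were matched. The protein-coding gene F38E11.9 has its 5′ end 428 bp from the pooled summit, and no other of the 11 regions had a protein-coding 5′ end within 500 bp. The identical copy F38E11.11 had no pooled region, and their 85 upstream bases were 24.7% identical, counted position by position. A stretch that both upstream sequences hold is out of step between them. This low value thus does not show that the upstream sequences of F38E11.10 and F38E11.11 are unrelated. The other 7 genes of this family with a pooled region had signals of 34.3 to 54.2, the highest at C53D6.12, which has a tRNA gene within 500 bp.

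The sup-39 family includes sup-39 and sup-6, known as U1 snRNA genes whose mutations change the choice of splice sites. sup-39 lay in C15F1.5, with a pooled signal of 86.6 (rank 2166), 46.2 in replicate 3 and 35.4 in replicate 2, its summit inside the gene. mir-1831, annotated with 22 bases inside sup-39, is counted through the same region. sup-6 had 67.1 (rank 4273), with 31.3 in replicate 3 and 40.4 in replicate 2, and H27M09.6 had 58.8 (rank 6224), with 21.1 in replicate 3 and 40.8 in replicate 2. Replicate 2 had the higher value at these last 2 genes and the lower at sup-39. The remaining 6 genes with a pooled region had 32.3 to 47.1, and T27E4.10, T27E4.12 and T27E4.22 shared 1 region.

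Of the C47F8.9 family, F08G2.10 had a pooled signal of 80.3 (rank 2647), with 42.8 in replicate 3 and 37.3 in replicate 2 and a summit 46 bp upstream. F11A5.14 had 55.7 (rank 7314), with 45.7 in replicate 3, but its summit lay 456 bp downstream. Of the smy genes, smy-1 had 83.0 (rank 2436), with 46.3 in replicate 3 and 37.7 in replicate 2. That summit lay 335 bp downstream of smy-1, with smy-2, which the annotation classes as snoRNA, within 500 bp of it. M163.13 had the strongest region of the 3 genes on chromosome X, at rank 7976 of the pooled list.

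**Figure D4:**
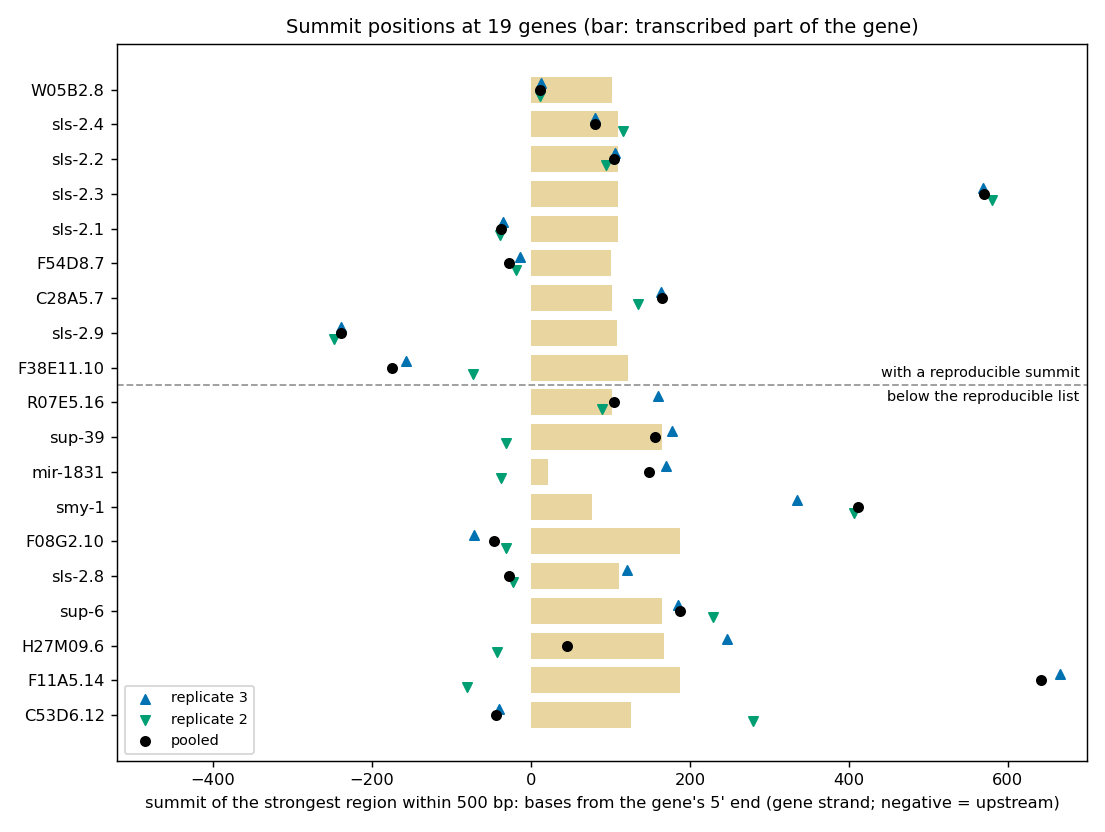
Summit of the strongest region within 500 bp in the pooled list (circles), replicate 3 (triangles up) and replicate 2 (triangles down), in bases from the 5′ end on the gene's strand, for the 9 genes with a reproducible summit and the 10 strongest below that list; bars are the transcribed parts. Above the dashed line the replicate marks lie within 35 bases of the circle except at F38E11.10, and below it they lie apart at several genes, such as H27M09.6 and F11A5.14.

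The 9 genes shared 11 distinct regions. Their pooled signals ran from 133 to 593 with a median of 196, against a median of 152 over the 1091 nuclear reproducible peaks. Their median rank was 299, against 567. All 11 had the same −log10 q-value in the reproducible list, 2.71, which thus does not order them. Over the pooled list the 52 regions at all snRNA and spliced leader genes together had a median signal of 47.7, against 42.2 over 29977 nuclear regions.

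Of the 9 genes, the nearest reproducible summit lay upstream of the 5′ end at 5, inside the gene at 3 and downstream at 1. In the pooled list the nearest summit lay upstream at 21, inside at 10 and downstream at 13 of 44. Taking the strongest summit of each gene instead gave 4 upstream, 3 inside and 2 downstream of the 9, and 16, 9 and 19 of the 44, so in the pooled list the larger side depends on which summit is taken. Summits came in pairs at 3 genes, W05B2.8, sls-2.1 and C28A5.7, at spacings of 201 bp, 205 bp and 207 bp. So 6 of the 11 regions, or 54.5%, had another reproducible summit within 250 bp, against 70 of 1091 nuclear peaks, or 6.42%. Both regions of a pair are counted, here and over all peaks, so the 6 come from 3 genes. The smallest spacing in the nuclear reproducible list was 199 bp, so a pair closer than that was not seen in it. The pooled list had the same smallest spacing, and the 3 spacings here lay near it. At each of the 3 genes the pair of summits lay around part or all of the transcribed stretch. This count was chosen after the values were seen and was not tested.

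Both replicates had a summit within 100 bp at 10 of the 11 regions. The log2 ratio of replicate 3 to replicate 2 ran from 0.14 to 1.48 there with a median of 0.48 (SD 0.37), against a median of 0.56 (SD 0.53) over 1004 nuclear reproducible peaks. Replicate 3 had the higher value at all 10, the lowest ratio being that of the second region at W05B2.8 and the highest that at sls-2.2. The difference between the medians was smaller than the spread over these regions. The signal values have no stated normalization, so the ratio is read beside that of all peaks alone. All 9 genes also had a summit among the 1112 strongest regions of replicate 2, and 8 among those of replicate 3, where sls-2.9 had none. No other snRNA or spliced leader gene had one in either set.

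**Figure D5:**
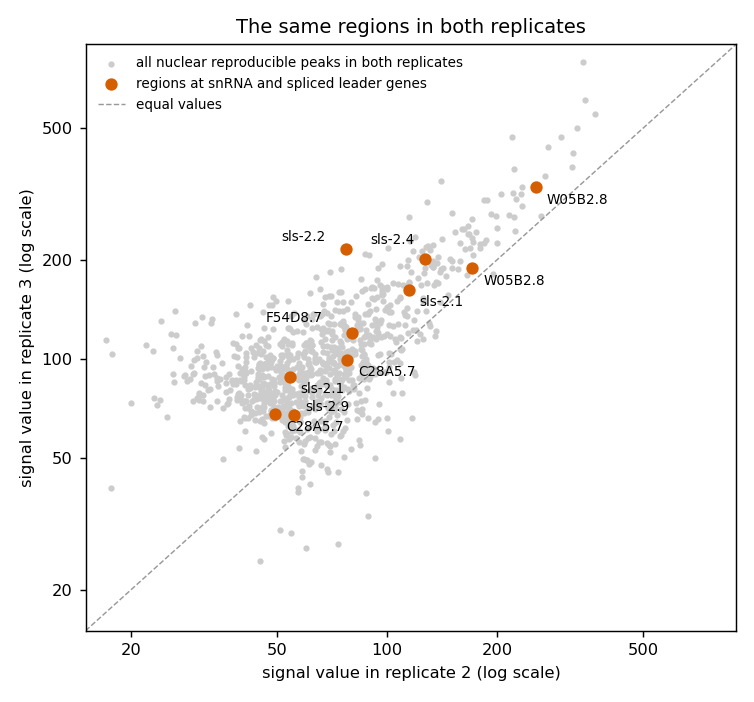
Signal value of each reproducible peak in replicate 3 (vertical) and replicate 2 (horizontal), both on log scales, for peaks with a summit in both; orange, the 10 regions at snRNA and spliced leader genes; grey, all 1004 such nuclear peaks. All 10 orange points lie above the dashed line of equal values, and sls-2.2 lies farthest from it, at a log2 ratio of 1.48.

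The genes lie on all 6 nuclear chromosomes. Reproducible summits were at 2 of 16 genes on chromosome I, 3 of 16 on II, 3 of 13 on III, 1 of 41 on IV, 0 of 40 on V and 0 of 3 on X. The strongest on V was F11A5.14, at a pooled signal of 55.7, and all 12 sls-1 genes are on V. Of the 63 genes inside a protein-coding gene 2 had a reproducible summit and 22 a pooled region, against 7 and 22 of the 66 outside. Of 42 genes with a non-coding gene on the opposite strand 5 had a reproducible summit and 21 a pooled region, against 9 and 44 of all 129. Among the 5 were sls-2.4 and the genes sls-2.2 and sls-2.3, which share 1 region. The like share over all nuclear genes with such a partner was not counted, and no difference was tested.

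Short words near the 5′ ends were searched on both strands in the 100 bases upstream. GAACCC lay upstream of 35 snRNA and spliced leader genes, or 27.1%, against 606 of 46753 other nuclear genes, and started at a median of 59 bases before the 5′ end. GTCNGNAC lay upstream of 45, or 34.9%, against 469 of them, at a median of 46 bases before. TATATAA lay upstream of 18, or 14.0%, against 1631, or 3.49%, at a median of 30 bases before, and 15 of the 18 belong to the R07E5.16 family. These words were chosen after sequences of these genes were seen, and copies of a gene share them. GAACCC was upstream of 2 of the 9 genes with a reproducible summit and of 33 of the 120 without one, and GTCNGNAC of 5 of the 9 and 40 of the 120. Of the 85 genes with at least 1 of the 4 words 8 had a reproducible summit and 36 a pooled region, against 1 and 8 of the 44 without. The 44 include 10 sls-1 genes, and without sls-1 genes the counts were 8 and 36 of 83, against 1 and 8 of 34, with medians of 89.8% and 91.6% unique words. CTCGAAA added no gene to those with another of the words. A match describes letters and not a bound site, and an exact search passes over near copies of a word.

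Homeodomain proteins commonly bind sites that hold TAAT. Within 50 bp of the summit TAAT lay at 4 of the 11 regions, against 33.0% of the 1091 nuclear reproducible peaks. TAATTG or TAATTA lay at 2, those of sls-2.4 and sls-2.2, against 4.86%. GAGAG lay at 3, against 42.1%, and TAAACG at 1, against 3.21%. With 11 regions these shares are too coarse to set apart from those of all peaks.

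Protein-coding genes that act with these RNAs were described by a list of 58, of which 52 were found in the annotation by name. The list holds Sm and LSm proteins, proteins of the snRNPs and of trans-splicing, SNAP complex and RNA polymerase III subunits, and assembly and cap factors. In the promoter window, the 500 bp before the 5′ end and the 100 bp after it, a reproducible summit lay at 2 of the 52, against 2.15% of all protein-coding genes. snr-1, an Sm protein gene, had a pooled signal of 377 (rank 65), with 208 in replicate 3 and 87.0 in replicate 2, at 428 bp upstream, where snx-13 also lies within 500 bp. prp-8, the gene of a central U5 snRNP protein, had 123 (rank 913), with 75.5 in replicate 3 and 46.9 in replicate 2, at 295 bp upstream. A pooled region lay in this window at 22 of the 52, or 42.3%, against 24.2% of all protein-coding genes. Among these 22 was snpc-4, a SNAP complex subunit, with a signal of 69.3, and snr-2 had 111, just under the weakest reproducible peak.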

How the data were processed

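The deposited files are narrowPeak lists on ce11, the build of the reference used here under its name WBcel235 (chromosome names and lengths were checked). Per the README texts deposited beside them, a replicate list comes from that library's alignments and 1 control, the pooled list from both libraries, and the reproducible list from these by the irreproducible discovery rate (IDR). Sonicated fragments were 200 to 800 bp, per the labels. The aligner, caller, versions, threshold and read filters are not given in the sources used here. Signal values are printed as the authors deposited them, with no normalization stated, and the −log10 q-value is also the authors'. Depth is unknown.

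Genes came from the Ensembl 115 annotation, and their names from RefSeq by identifier for all 129. Summits were counted within 500 bp of a gene. Summits of different lists were matched within 100 bp, and ranks are by signal within a list. Families were built by single linkage of global alignments in Biopython 1.88, except the sls-1 and smy genes, which were grouped by name. Upstream identity was counted without gaps or shifts, so related sequences that are out of step score low. Python 3.11.15, numpy 2.4.6, scipy 1.17.1, pandas 2.3.3 and matplotlib 3.10.9 were used. No test was run. The counting was tested on simulated positions. Intervals are exact (Clopper-Pearson).

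The genes, lists and words were chosen with earlier results of these data known. Genes were named by a rule: all with a reproducible summit, the spliced leader genes, the 10 strongest below that list, the strongest on each chromosome and list genes with a reproducible summit. T27E4.10, T27E4.12, T27E4.22, K09B11.11, F54C8.9, F38E11.11, ZK1251.14, snpc-4 and snr-2 were added after their values were seen. The list genes lsm-2, sap-1, snpc-1.5, rpc-10, gemi-2 and larp-7 were not found by name.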

Additional observations from a re-analysis of the deposited data

How the results depend on the processing

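For 8 results 50 alternatives were run, and 38 stayed within 1.5 times the count, or within the spread, of the value reported. No paired analysis was possible because there is 1 group. Leaving out the spliced leader genes gave 4 of the other 99 genes with a reproducible summit, 4 among the strongest regions of both replicates and 3 upstream summits, since 5 of the 9 are spliced leader genes. With summits counted within 1000 bp, 35 genes had a region in both replicate lists. The stronger part of the reproducible list gave a median rank of 115, 2 upstream summits and 1 protein-coding list gene, snr-1. With 1 replicate in place of the reproducible list, 8 to 9 genes had a summit, the median rank ran from 136 to 326.5 and upstream summits from 3 to 4, and 2 list genes had one each time. A promoter from 1000 bp upstream to 200 bp downstream gave 4 list genes, adding lsm-3 and prp-19. Keeping genes with at least 90% unique words, an alternative chosen after seeing the data, left 25 with a pooled region and 15 in both replicate lists of the 61 kept. Without genes near a tRNA or snoRNA gene, 8 kept a reproducible summit. Sequence copies that reads cannot tell apart and the unknown depth limit what the lists can show at repeated genes.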
